A study of Mus musculus with 7 samples.

Results

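Prrx1, Osr1, Alx1, Twist1, Twist2, Snai1, Snai2, Zeb1 and Zeb2 are 9 genes of transcription factors that act in mesenchyme, in the developing face and in the shift of cells from an epithelial to a mesenchymal state. They were taken by symbol from a fixed list, and they are 9 of the 19415 genes listed in at least 1 of the 7 deposited count tables. The tumours are mouse atypical teratoid rhabdoid tumours, brain tumours that form when cells lose Smarcb1, which encodes a subunit of the SWI/SNF complexes that move nucleosomes. Single cells were profiled by 3' droplet sequencing, in which each captured transcript carries a unique molecular identifier (UMI), so that a UMI count approximates a count of molecules.

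Every animal carried Rosa26-creERT2::Smarcb1 fl/fl, in which a ubiquitous promoter drives a Cre recombinase that tamoxifen switches on, and every animal had been exposed to 50 mg/kg tamoxifen given to its mother at day 6.5 post coitum. There were no untreated animals or normal tissues. The MYC subgroup had 5 libraries of 4 animals: replicate 1 came from the basal cerebrum at 12 weeks, replicates 2 and 3 from the trigeminal nerve and the lateral cerebellum at 19 weeks, replicate 4 from a trigeminal nerve at 21 weeks and replicate 5 from the basal cerebrum at 27 weeks. The SHH subgroup had 2 libraries of 2 animals, both labelled striatum/subventricular zone, replicate 1 at 14 weeks and replicate 2 at 16 weeks. MYC replicates 2 and 3 were taken as 1 animal because their titles share a number and their ages are equal; the labels do not say so in words. Subgroup and site cannot be told apart. Dead cells had been sorted out with the dye 7-AAD, and the labels name no sort by lineage.

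Prrx1 and Alx1 are homeobox factors of limb, craniofacial and perivascular mesenchyme, and Osr1 is a zinc finger factor of embryonic connective tissue. Twist1 and Twist2 are basic helix-loop-helix proteins of cranial neural crest and dermis that bind E-box DNA as dimers. Snai1, Snai2, Zeb1 and Zeb2 are zinc finger repressors that bind E-boxes in epithelial genes such as Cdh1, and all are well known in epithelial to mesenchymal transition. Zeb2 is also a factor of myeloid cells and of myelinating glia, and Zeb1 of T cells.

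In the GENCODE annotation of GRCm38 (the assembly that mm10 names), Prrx1 lies at chr1:163245119-163313710, Alx1 at chr10:102998707-103030215, Zeb2 at chr2:44983632-45117395 (all on the minus strand), Osr1 at chr12:9570116-9581500 and Snai2 at chr16:14705852-14709385 (both on the plus strand). All are protein-coding genes.

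Of the 9 genes, 5 had an entry in RefSeq's promoter table (GRCm38.p6). The promoters of the E-box binding factors Twist1, Twist2 and Snai1, with 1 window each, are shown because E-boxes are the letters these proteins bind. Zeb2, with 4 windows, and Prrx1, a homeobox factor, also had entries and are not shown. Each line gives the 250 bases before the start of the gene, 5′ to 3′, with any CANNTG (the E-box, searched on both strands) in capitals. Twist1 lies at chr12:33957421-33957670 on the plus strand, Twist2 at chr1:91801211-91801460 on the plus strand, and Snai1 at chr2:167537945-167538194 on the plus strand.
Twist1: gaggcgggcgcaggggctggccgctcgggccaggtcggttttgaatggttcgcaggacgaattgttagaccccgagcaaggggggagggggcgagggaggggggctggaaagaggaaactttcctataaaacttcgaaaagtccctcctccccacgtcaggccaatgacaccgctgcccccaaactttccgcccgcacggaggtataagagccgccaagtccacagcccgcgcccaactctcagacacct
Twist2: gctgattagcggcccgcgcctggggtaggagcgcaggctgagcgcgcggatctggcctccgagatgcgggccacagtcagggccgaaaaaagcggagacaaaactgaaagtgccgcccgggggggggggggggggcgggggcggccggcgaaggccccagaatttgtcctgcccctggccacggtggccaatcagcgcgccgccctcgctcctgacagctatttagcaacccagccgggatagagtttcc
Snai1: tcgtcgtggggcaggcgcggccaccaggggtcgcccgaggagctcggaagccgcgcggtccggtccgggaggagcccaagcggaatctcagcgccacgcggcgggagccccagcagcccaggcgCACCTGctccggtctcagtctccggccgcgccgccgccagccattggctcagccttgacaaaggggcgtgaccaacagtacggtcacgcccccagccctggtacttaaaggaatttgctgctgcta
The window of Snai1 held 1 E-box, CACCTG, which begins 126 bases before the start, and the windows of Twist1 and Twist2 held none. CANNTG was in 66.2% of all 32851 promoter windows of this length and CACCTG, which is 1 of its forms, in 17.2%. These are matches of letters only.

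Non-immune cells were taken in 2 ways. The first was every cell in which Ptprc, the pan-leukocyte gene for CD45, had 0 UMIs: 15488 of the 21899 cells that passed filters. Because a droplet can miss Ptprc, the second class kept only the 10150 of these cells in which 10 other immune genes made up at most 0.1% of the UMIs; it is called low-immune here. Libraries contributed 89 (MYC replicate 4) to 7944 (MYC replicate 5) low-immune cells, with median depths of 2839.5 to 12393 UMIs per cell. Levels are in CPM, the UMIs of a gene per 1000000 UMIs of the same cells, intervals on single libraries cover counting error only, and 230 barcode sequences occurred in at least 2 libraries. The targeted gene Smarcb1 was at 2.35, 25.5, 2.80, 8.38 and 1.71 CPM in low-immune cells of MYC replicates 1 to 5 and at 14.7 and 1.42 CPM in those of SHH replicates 1 and 2, against 23.1 to 48.9 CPM in cells with Ptprc. Within animals Smarcb1 was lower in low-immune cells by edgeR's quasi-likelihood test, with a log2 fold change of -3.42 ± 0.48 (SE, 6 animals, adjusted p = 0.00186). A 3' tag outside the deleted exons does not check the deletion, and the position of the deletion is not given in the sources used here.

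Low-immune cells still held cells with markers of other types. A cell was put in a marker class when it had UMIs of at least 3 genes of a marker list. Erythroid genes marked 53.4% of the low-immune cells of MYC replicate 2 and 19.3% of those of MYC replicate 3, and all 4 erythroid markers were at 0 in MYC replicate 4 and SHH replicate 2. Fibroblast and meningeal genes marked from 1.83% (MYC replicate 3) to 26.5% (MYC replicate 5) of the low-immune cells in MYC. They marked 0% and 0.268% of those of SHH replicates 1 and 2, so this share was higher in every MYC library than in both SHH libraries. The summed level of that list overlapped, from 256 to 1899 CPM in MYC and from 321 to 500 CPM in SHH. Macrophage genes marked 14.3% in MYC replicate 5, and Schwann and oligodendrocyte genes 9.80% in SHH replicate 1. No genetic mark of tumour cells was used, so each level below is an average over the cells of the class.

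Prrx1 was higher in low-immune cells of every MYC library than in those of both SHH libraries, and Osr1 was found in every MYC library and listed in neither SHH library. In low-immune cells Prrx1 stood at 451, 270, 574, 197 and 139 CPM in MYC replicates 1 to 5 and at 26.6 and 31.4 CPM in SHH replicates 1 and 2. The counting intervals of the neighbours MYC replicates 2 (237 to 307 CPM) and 4 (159 to 241 CPM) overlapped, as did those of the SHH libraries, and all other neighbours in the order were separate.

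As normalised sums per animal, Prrx1 was at 329 ± 170 CPM (SD, n = 4) in MYC and 25.8 ± 3.68 CPM (n = 2) in SHH, a log2 fold change of 3.67 ± 0.64 (SE; edgeR's quasi-likelihood test, Benjamini-Hochberg adjusted p = 0.0355). Prrx1 UMIs were found in 78.8%, 47.5%, 93.6%, 38.2% and 31.4% of low-immune cells of MYC replicates 1 to 5, and in 5.74% and 7.86% of those of SHH replicates 1 and 2. With each cell thinned to 1500 UMIs the shares were 35.8%, 22.0%, 49.5%, 22.8% and 15.1% in MYC and 4.12% and 3.68% in SHH. At equal depth every MYC library was still above both SHH libraries. Cells with Ptprc in the same SHH libraries, thinned the same way, had Prrx1 in 0.104% and 0.505%.

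Osr1 stood at 11.4, 24.4, 47.7, 103 and 42.5 CPM in MYC replicates 1 to 5. It was listed in neither SHH table, and tables list a gene only where at least 3 of the library's barcodes hold it. The animals differed, with 51.8 ± 38.5 CPM in MYC (SD, n = 4; edgeR's quasi-likelihood test, adjusted p = 0.0392), and no fold is given against a group at 0. The highest level was in MYC replicate 4, whose 49 UMIs came from 23 of 89 cells.

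These 2 of 9 members passed the test between subgroups in low-immune cells, both higher in MYC, and 4 members (Prrx1, Osr1, Twist1 and Snai2) did not overlap between the groups. Of all 11712 genes tested, 4.05% passed, 1.96% as higher in MYC and 2.09% as lower, and 34.4% did not overlap. The median log2 fold change was 3.67 over the 9 members, which is the value of Prrx1, and 0.03 over all genes tested. Osr1 and Alx1 (at 0 in SHH), Snai1 (4.58) and Snai2 (4.07) were fitted above it. The calls of Prrx1 and Osr1 rest on few animals: without SHH replicate 1 their adjusted p were 0.266 and 0.188, and without SHH replicate 2 they were 0.268 and 0.237. Adjusted p was 0.0519 for Prrx1 without MYC replicate 1, 0.0507 for Osr1 without MYC replicate 4, and 0.0568 and 0.0874 without MYC replicate 5. In a fit that also held how many sequencing runs a library had, they were 0.0590 and 0.0792. The log2 fold change of Prrx1 stayed between 3.38 and 3.90 in all these fits.

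Over all cells with Ptprc at 0, which include immune cells in which Ptprc was missed, 0 of 9 members passed edgeR's test, 3 had an unadjusted p under 0.05 (Prrx1, Osr1 and Snai2), and 3 passed DESeq2's Wald test. Of all 12979 genes tested 13.1% had an unadjusted p under 0.05 and 7.12% passed DESeq2's test. Of the same genes 0.331% passed edgeR's test, 0.0385% as higher in MYC and 0.293% as lower, and 22.3% did not overlap, as did 3 members. Prrx1 was at 405, 112, 516, 54.3 and 125 CPM in MYC replicates 1 to 5 and at 8.66 and 27.0 CPM in SHH replicates 1 and 2, a log2 fold change of 3.78 ± 0.97 (SE, adjusted p = 0.196). In a sum over cells, fewer expressing cells and less RNA per cell cannot be told apart.

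**Figure D1:**
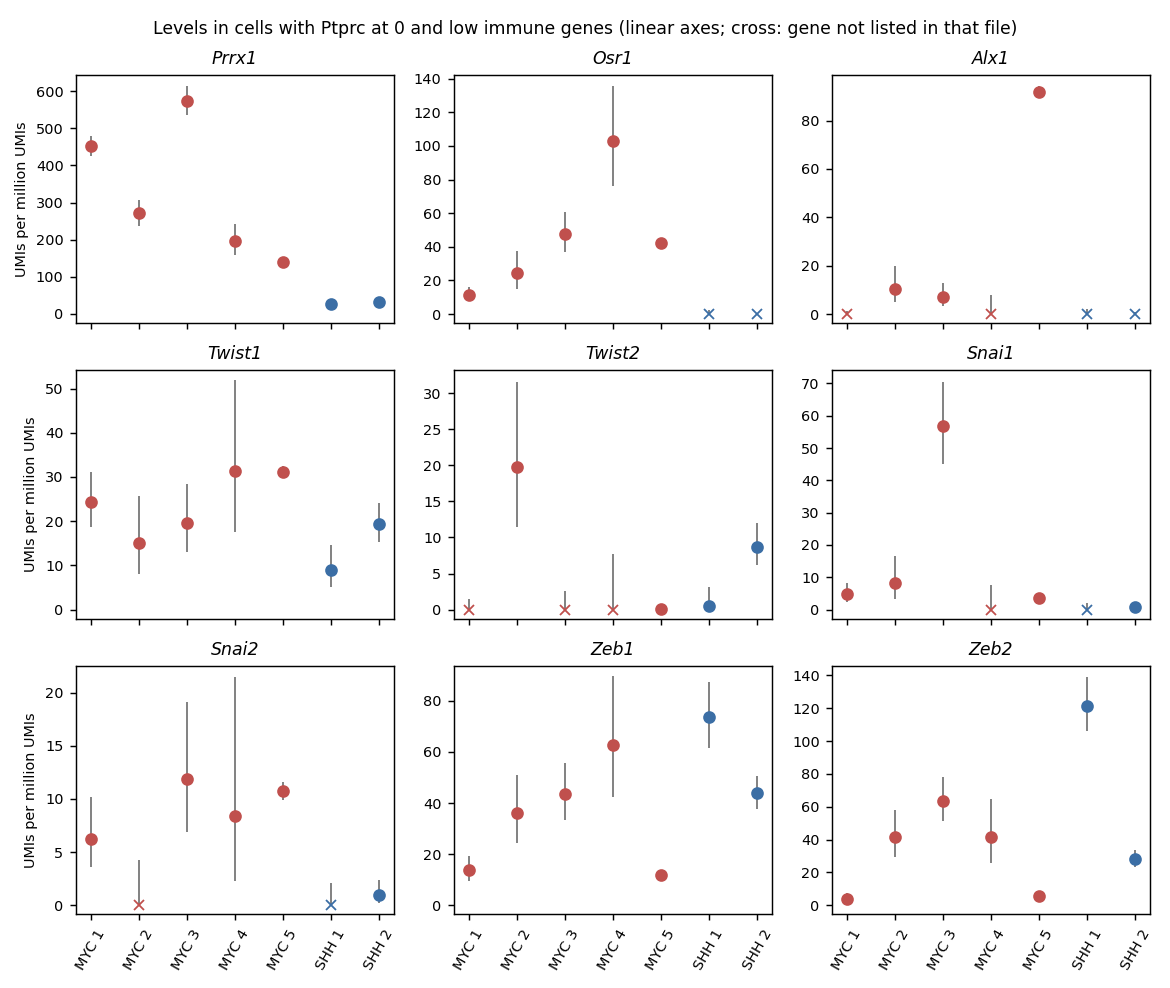
Level of each of the 9 genes in low-immune cells (CPM, linear axes with a scale per gene) in the 5 MYC libraries (red) and 2 SHH libraries (blue); error bars are Poisson 95% intervals and crosses mark libraries whose table does not list the gene. Prrx1 was at 139 CPM or more in every MYC library and at 31.4 CPM or less in both SHH libraries.

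Alx1 was chiefly a gene of 1 tumour. It was at 91.9 CPM in MYC replicate 5, where 31.7% of low-immune cells had a UMI, at 10.4 and 7.01 CPM in MYC replicates 2 and 3, which were taken as 1 animal, and was listed in none of the other 4 libraries. The other basal cerebral tumour, MYC replicate 1, was thus without a listed Alx1. The test between subgroups gave an adjusted p of 0.239 (edgeR's quasi-likelihood test).

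Twist1 was detected in all 7 libraries, at 24.3, 15.1, 19.6, 31.4 and 31.1 CPM in MYC replicates 1 to 5 and at 9.05 and 19.3 CPM in SHH replicates 1 and 2. By library the groups overlapped, since SHH replicate 2 lay above MYC replicate 2. By animal they did not, at 28.2 ± 7.84 CPM (SD, n = 4) in MYC and 12.7 ± 6.79 CPM (n = 2) in SHH, and the log2 fold change of 1.13 ± 0.48 (SE) had an adjusted p of 0.222 (edgeR's quasi-likelihood test).

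Its paralogue Twist2 followed another pattern. Twist2 was at 19.7 CPM in MYC replicate 2 (17 UMIs in 12 cells), at 8.73 CPM in SHH replicate 2 (37 UMIs in 28 cells), at 0.0806 CPM in MYC replicate 5 and at 0.566 CPM in SHH replicate 1, and was not listed in the other 3 libraries. The groups overlapped (adjusted p = 0.792). Twist2 was therefore found in the trigeminal library and was not listed in the cerebellar library of what was taken as the same animal.

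Snai1 was highest in that cerebellar library. It stood at 4.70, 8.13, 56.8 and 3.595 CPM in MYC replicates 1, 2, 3 and 5 and at 0.943 CPM in SHH replicate 2, and was not listed in MYC replicate 4 or SHH replicate 1. In MYC replicate 3, 32.1% of low-immune cells had a Snai1 UMI. In MYC replicate 2, which had neutrophil genes at a summed 823 CPM in low-immune cells, only 21.2% of the library's 33 Snai1 UMIs lay in low-immune cells, and its 102 cells of the neutrophil class had Snai1 at 25.1 CPM.

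Snai2 was at 6.27, 11.9, 8.38 and 10.7 CPM in MYC replicates 1, 3, 4 and 5, was not listed in MYC replicate 2, and was at 0.943 CPM in SHH replicate 2 and not listed in SHH replicate 1. By animal MYC (8.89 ± 2.69 CPM, n = 4) lay above SHH (0.427 ± 0.604 CPM, n = 2), with a log2 fold change of 4.07 ± 0.94 (SE). The adjusted p was 0.0645 by edgeR's quasi-likelihood test and 0.00265 by DESeq2's Wald test.

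Zeb1 and Zeb2 did not separate the subgroups but varied strongly within them. Zeb1 was at 13.7, 35.98, 43.4, 62.8 and 11.7 CPM in MYC replicates 1 to 5 and at 73.5 and 43.9 CPM in SHH replicates 1 and 2. Zeb2 was at 3.92, 41.8, 63.8, 41.9 and 5.79 CPM in MYC replicates 1 to 5 and at 122 and 28.1 CPM in SHH replicates 1 and 2. Both genes were lowest in the 2 basal cerebral tumours. Adjusted p between subgroups were 0.610 for Zeb1 and 0.543 for Zeb2 (edgeR's quasi-likelihood test). The log2 fold change of Zeb2, -1.28 ± 1.10 (SE), became 0.05 without SHH replicate 1. Zeb2 shares its locus with an antisense gene, Zeb2os, and the sources used here do not state how strand was counted.

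Site could be compared within MYC only, trigeminal nerve (replicates 2 and 4) against basal cerebrum (replicates 1 and 5). Zeb2 was at 42.2 ± 2.30 CPM (SD, n = 2) in trigeminal and 5.01 ± 1.57 CPM (n = 2) in basal cerebral tumours, a log2 fold change of 3.04 ± 0.47 (SE), with an adjusted p of 0.478 by edgeR's quasi-likelihood test and 0.000623 by DESeq2's Wald test. Zeb1 was at 49.3 ± 16.3 CPM and 13.0 ± 0.924 CPM, a log2 fold change of 1.92 ± 0.45 (adjusted p = 0.493). The sites did not overlap for these 2 of the 7 members tested, against 37.4% of the 9593 genes tested. By edgeR 0 of the 7 members passed and 0 of all genes (0% of those tested), 2 members had an unadjusted p under 0.05 (705 of all genes, 7.35%), and by DESeq2 1 member and 191 genes (1.99%) passed. Erythroid markers did not follow site. They summed to 109887 and 0 CPM in the trigeminal MYC replicates 2 and 4, and to 170 and 1.45 CPM in the basal cerebral MYC replicates 1 and 5. Schwann and oligodendrocyte markers were at a summed 129 and 1231 CPM in the trigeminal and 23.5 and 52.6 CPM in the basal cerebral libraries, with 5 and 7 of 8 markers detected against 4 and 8. The part of these cells in the Zeb2 and Zeb1 levels was not tested. The targeted gene Smarcb1 also did not overlap between the sites, at 17.4 ± 13.2 CPM in trigeminal and 2.07 ± 0.375 CPM in basal cerebral tumours. Its log2 fold change was 3.17 ± 0.75 (SE; edgeR's quasi-likelihood test, adjusted p = 0.493). Whether the sites differed in their share of cells that kept Smarcb1 was not tested.

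For Prrx1, Osr1, Alx1, Twist1 and Snai2 the sites overlapped. Prrx1 was at 237 ± 65.7 CPM in trigeminal and 298 ± 213 CPM in basal cerebral tumours (SD, n = 2 each; edgeR's adjusted p = 0.949). The lateral cerebellar tumour was left out of that test because it shares an animal with MYC replicate 2. It had the highest Prrx1 (574 CPM), Snai1 (56.8 CPM) and Snai2 (11.9 CPM) of all 7 libraries. Its Snai2 came from 17 UMIs in 9 cells. The interval of 6.94 to 19.1 CPM overlapped those of MYC replicates 1, 4 and 5.

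Low-immune cells were next set against cells with Ptprc of the same animals, which gives each gene's background in leukocytes. Prrx1 and Twist1 were higher in low-immune cells and Zeb2 was lower. Prrx1 was higher in 6 of 6 animals, at 210 ± 191 against 30.2 ± 33.8 CPM (SD, n = 6), a log2 fold change of 3.36 ± 0.69 (SE; edgeR's quasi-likelihood test with the animal as a block, adjusted p = 0.00913). Twist1 was higher in 6 of 6 animals, at 21.1 ± 9.12 against 2.90 ± 4.86 CPM, a log2 fold change of 3.35 ± 0.58 (adjusted p = 0.00467). Zeb2 was lower in 6 of 6 animals, at 37.9 ± 36.1 against 152 ± 72.7 CPM, and fell by 2.55 ± 0.67 on the log2 scale (adjusted p = 0.0238).

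Zeb1 was at 37.0 ± 21.1 against 20.3 ± 7.84 CPM and higher in 4 of 6 animals (adjusted p = 0.203), with MYC replicates 1 and 5 the exceptions. Osr1 was higher in the 4 MYC animals and at 0 in both classes of the SHH animals (adjusted p = 0.0887). Of the 5 members with enough counts for this test, 2 were higher and 1 lower, where 14.1% of 9955 genes were higher and 15% lower. For 0 of the 5 did the classes stand fully apart across animals, against 11.8% of all genes tested. Alx1, Twist2, Snai1 and Snai2 were below the count filter. The call of Zeb2 was lost without MYC replicate 5 (adjusted p = 0.0636) and without SHH replicate 2 (0.0638). Without the pairing by animal, the adjusted p was 0.0841 for Prrx1 and at the threshold of 0.05 for Zeb2.

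Where the UMIs lay restates these levels and also depends on the size of the class. Low-immune cells were 3.99% (MYC replicate 4) to 66.4% (SHH replicate 2) of the cells that passed filters. In the 7 libraries 85.7% to 98.7% of Prrx1 UMIs and 76.2% to 100% of Twist1 UMIs were in low-immune cells, but 3.75% to 55.2% of Zeb2 UMIs. The lowest Zeb2 share was that of MYC replicate 4, where low-immune cells held 477505 UMIs of all genes and cells with Ptprc 3363009. The highest was that of MYC replicate 3, where low-immune cells were 59.6% of the cells. MYC replicate 5 had Prrx1, Alx1, Osr1 and Twist1 at 50.6, 28.0, 16.2 and 12.1 CPM in its cells with Ptprc and this Prrx1 level was above that of the low-immune cells of both SHH libraries. Free RNA and doublets in that library were not separated from expression in leukocytes.

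**Figure D2:**
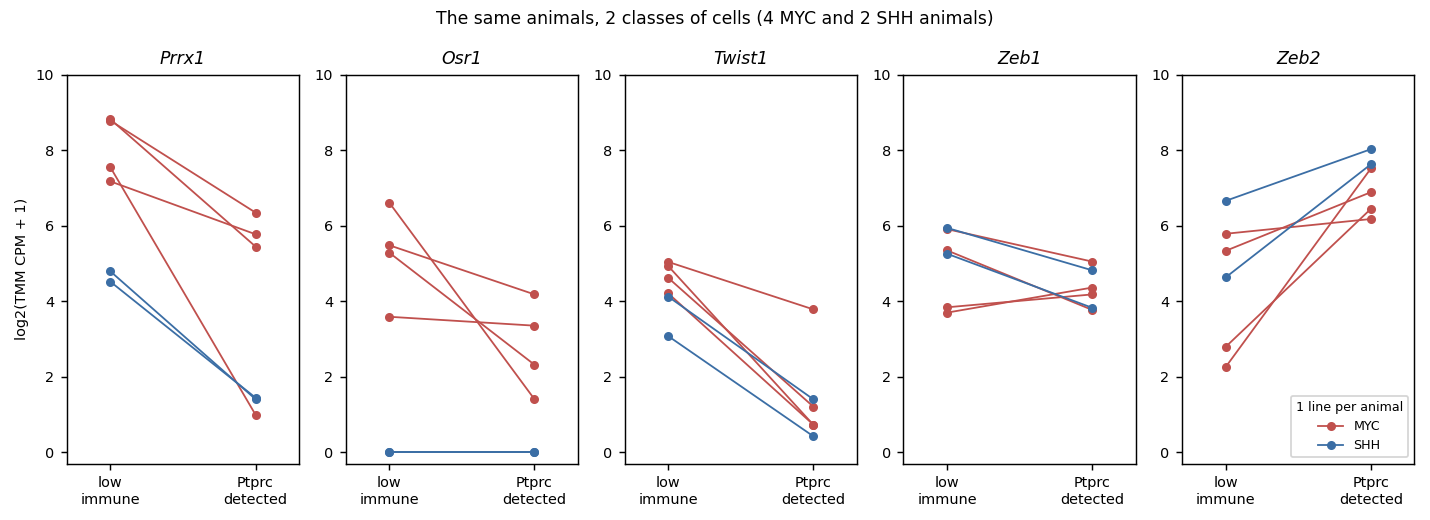
Level of 5 genes (log2 of TMM-normalised CPM + 1) in low-immune cells and in cells with Ptprc, 1 line per animal (4 MYC animals in red, 2 SHH animals in blue). Prrx1 and Twist1 were higher in low-immune cells of all 6 animals and Zeb2 was lower in all 6; the 2 SHH lines of Osr1 lie on each other at 0.

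The Zeb genes were split between the macrophage class and the T and NK cell class. Both classes were drawn from all cells that passed filters, with or without Ptprc. In MYC replicate 5, 2661 of the 4838 cells with macrophage markers had Ptprc at 0, and 1135 were low-immune. Among cells with markers of 1 list only, Zeb2 was at 252, 253, 406 and 84.1 CPM in the macrophage class of MYC replicates 1, 3, 4 and 5 and at 262 and 268 CPM in that of SHH replicates 1 and 2. In the T and NK cell class Zeb2 was between 0 and 30.3 CPM in the same 6 libraries. Zeb1 went the other way, at 25.3, 30.3, 44.5 and 39.2 CPM in the T and NK cell class of MYC replicates 1, 3, 4 and 5 and 47.1 and 43.7 CPM in SHH, against 1.88 to 13.2 CPM in macrophages. For Zeb2 the lowest macrophage level (84.1 CPM) was above the highest T and NK cell level (30.3 CPM), and for Zeb1 the lowest T and NK cell level (25.3 CPM) was above the highest macrophage level (13.2 CPM). These are values by library without a test. Of the 7 genes on the T and NK cell list 5 were detected, Cd3d, Cd3e and Cd3g among them. A cell with at least 3 markers thus had a Cd3 gene, and NK cells without one are not covered.

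Another class with high Zeb2 was found in SHH replicate 1, where 58 cells with markers of Schwann cells and oligodendrocytes only had Zeb2 at 521 CPM (Poisson 95% interval 417 to 644). The 487 low-immune cells of that library with no marker class had Zeb2 at 73.0 CPM and Zeb1 at 78.5 CPM. In SHH replicate 2, where that class made up 0.268% of the low-immune cells, the 1084 cells with no class had 25.2 and 43.1 CPM. Schwann and oligodendrocyte markers summed to 4615 CPM in the low-immune cells of SHH replicate 1 and to 151 CPM in those of SHH replicate 2. Zeb2 was thus higher in SHH replicate 1 both over all low-immune cells (122 against 28.1 CPM) and in the cells with no class, and no test bears on this difference between 2 libraries.

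**Figure D3:**
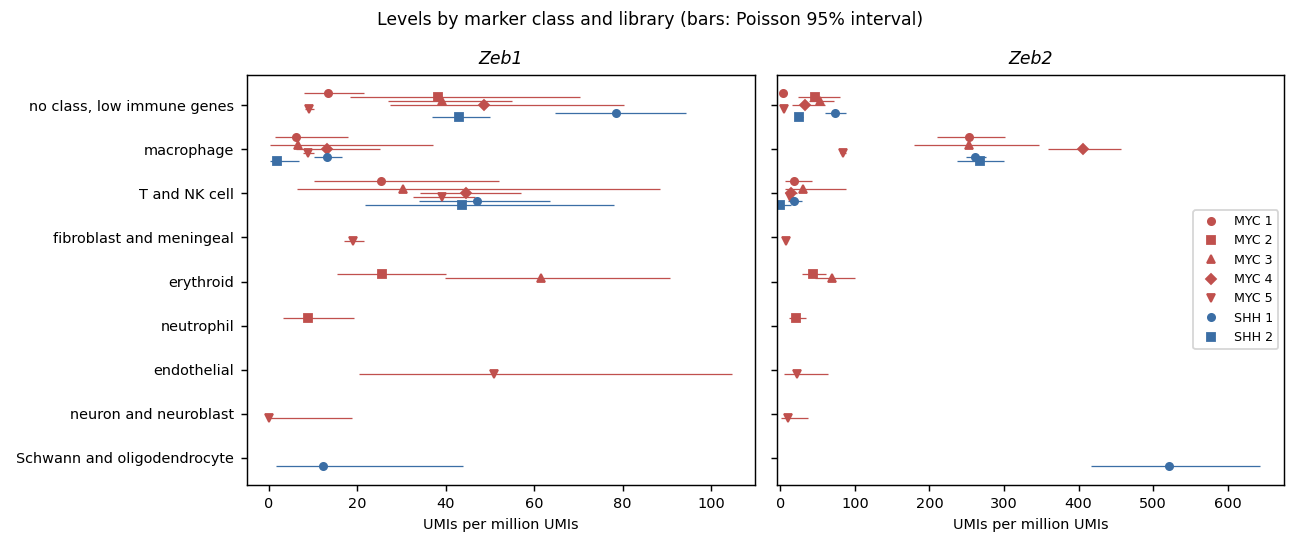
Zeb1 and Zeb2 levels (CPM, linear axes) in cells that carry at least 3 markers of 1 cell type list only, and in low-immune cells with no class, by library (red, MYC; blue, SHH; error bars, Poisson 95% intervals; classes with 20 or more cells). Zeb2 was highest in the macrophage class and in the Schwann and oligodendrocyte class, which reached 20 cells in SHH replicate 1 only (58 cells). Zeb1 was low in the macrophage class and higher in the T and NK cell class, whose cells had a Cd3 gene.

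Co-detection of 2 genes in a cell was described as the number of low-immune cells with UMIs of both, divided by the number given by the 2 shares if they were independent. Cells were thinned to 1500 UMIs. Only MYC replicate 5, with 7944 cells, gave an expected number of at least 3 cells for many of the 36 pairs (20 pairs), and 17 of these 20 lay above 1, with a median ratio of 1.78. All these cells share 1 tumour and library, and no test is attached. They are also a mixture, with 26.5% in the fibroblast and meningeal class and 14.3% in the macrophage class before thinning. Pairs of other genes were not counted, so whether ratios above 1 are particular to the members was not tested. At least 1 member was found in 31.8% of the thinned cells, at least 2 in 8.37% and at least 3 in 1.40%.

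The largest pair was Prrx1 and Alx1, found together in 255 cells against 143 expected (ratio 1.79; 1323 cells against 791 without thinning). Prrx1 and Osr1 were together in 119 cells against 59.3 (2.01). Prrx1 and Zeb1 were together in 61 cells against 22.5 (2.71). Alx1 and Snai2 had the highest ratio, 46 cells against 16.1 (2.86), followed by Alx1 and Zeb1 with 49 against 17.7 (2.76) and Twist1 and Snai2 with 18 against 6.53 (2.76).

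Osr1 was the member that joined least with Snai2 and Twist1. Osr1 and Snai2 shared 3 cells against 6.68 expected (0.449), and without thinning 50 cells against 66.8 (0.748), the only 1 of the 20 pairs below 1 at full depth. The other pairs below 1 were Alx1 and Snai1, with 5 cells against 5.23, and Osr1 with Twist1. Osr1 and Twist1 shared 17 cells against 19.0 thinned (0.895) and 282 against 221 unthinned (1.27). In MYC replicate 4, without thinning, Prrx1 and Osr1 shared 18 cells against 8.79 expected (2.05), and Prrx1 and Twist1 shared 1 cell against 3.44. In MYC replicate 3, where 93.6% of cells had Prrx1, no ratio with Prrx1 could be far from 1, and Snai1 and Zeb1 shared 17 cells against 12.2.

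In the SHH libraries few cells held at least 2 members, 2.47% in replicate 1 and 1.43% in replicate 2 after thinning, where MYC libraries had 3.35% to 17.4%. The Wilson interval of MYC replicate 1 (1.55% to 7.12%) overlapped those of SHH replicates 1 (1.42% to 4.27%) and 2 (0.855% to 2.39%). That of MYC replicate 2 (4.06% to 13.9%) overlapped that of SHH replicate 1. Osr1 and Alx1, listed in neither SHH table, could not count there. Without thinning Prrx1 and Zeb1 shared 23 cells against 13.4 in SHH replicate 2 and 8 against 6.15 in SHH replicate 1.

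**Figure D4:**
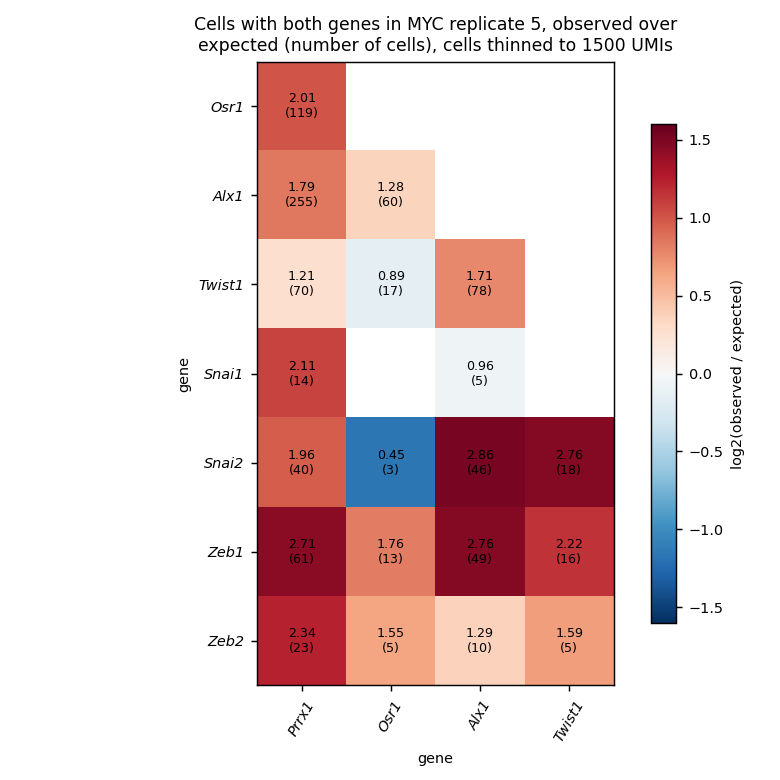
Pairs of members in low-immune cells of MYC replicate 5 after thinning each cell to 1500 UMIs; colour is log2 of observed over expected cells, and each field gives the ratio and, in brackets, the observed cells (pairs with at least 3 expected cells). Alx1 with Snai2 or Zeb1, Prrx1 with Zeb1, and Twist1 with Snai2 lie above 2.7, and Osr1 with Snai2 lies at 0.45.

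The cells of MYC replicate 5 were also divided by Epcam, a gene of epithelial cell adhesion, and by Col1a2, a chain of fibrillar collagen type I. After thinning 3229 cells had Epcam and 4715 did not. Prrx1 was found in 5.23% of cells with Epcam (Wilson 95% interval 4.52 to 6.06) and in 21.8% of cells without it (20.7 to 23.0). Alx1 was found in 5.26% and 16.4%, Zeb1 in 0.496% and 2.82%, and Snai2 in 0.434% and 2.57%. Osr1 (3.44% and 5.98%) and Twist1 (3.4995% and 5.75%) differed less, and the intervals of Zeb2 (0.588% and 0.976%) overlapped.

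By Col1a2 the direction was the other way. Prrx1 was found in 33.2% of the 2332 cells with Col1a2 and 7.56% of the 5612 without it, Alx1 in 27.3% and 5.51%, Zeb1 in 4.85% and 0.641%, and Snai2 in 4.85% and 0.392%. Zeb2 was in 0.901% and 0.784%, with overlapping intervals. Cells of the fibroblast and meningeal class in this library (1830 cells with markers of that list only) had Prrx1 at 231 CPM, Alx1 at 143 CPM, Osr1 at 59.5 CPM and Twist1 at 41.2 CPM, and the 4997 low-immune cells with no class had 111, 82.8, 35.2 and 28.6 CPM. Col3a1 is on that marker list, so cells rich in collagen RNA enter it, and whether they are tumour or stromal cells was not tested.

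**Figure D5:**
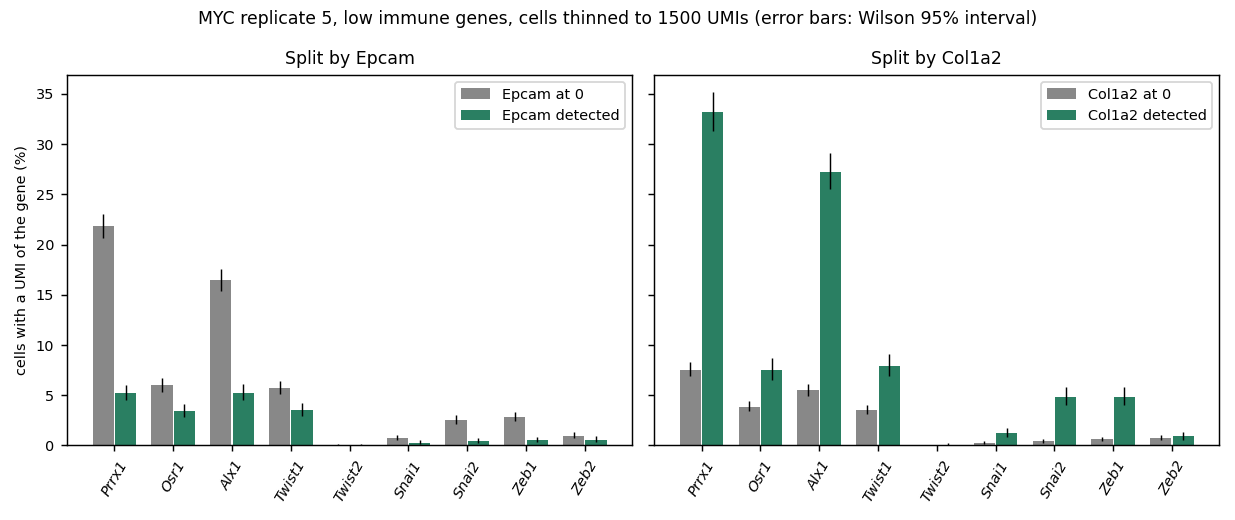
Share of low-immune cells of MYC replicate 5 (each thinned to 1500 UMIs) with a UMI of each member, divided by detection of Epcam (left) or Col1a2 (right); error bars are Wilson 95% intervals. The shares of Prrx1, Alx1, Snai2 and Zeb1 were lower with Epcam and higher with Col1a2, with separate intervals, and the intervals of Zeb2 overlapped in both divisions.

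Other tumours had too few cells for most of these divisions. In MYC replicate 1, the second basal cerebral tumour, Prrx1 was in 25.8% of 66 cells with Epcam and 41.6% of 113 without it, and in 43.5% of 92 cells with Col1a2 and 27.6% of 87 without it. The Wilson intervals overlapped in both divisions, and without thinning the shares by Epcam were 76.6% and 82.4%. In MYC replicate 2 Prrx1 was in 33.3% of 69 cells with Col1a2 and 6.12% of 49 without, with separate intervals. The intervals overlapped in MYC replicate 4, with 34.3% of 35 and 13.6% of 44, and in MYC replicate 3, with 50.0% of 88 and 47.6% of 21. In SHH replicates 1 and 2, where 4 and 1 thinned cells had Col1a2, Prrx1 was in 5.30% and 5.03% of cells with Epcam and 3.67% and 3.38% of cells without, with overlapping intervals.

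Genes of the same programme were counted from lists. Of 29 tested further craniofacial and mesenchymal transcription factors, 0 passed between subgroups in low-immune cells by edgeR, 11 had an unadjusted p under 0.05 (9 higher and 2 lower in MYC), and DESeq2 called 9 higher and 2 lower. Over all 11712 genes 22.8% had an unadjusted p under 0.05 (12.5% higher and 10.3% lower), and DESeq2 called 14.2% (8.6% higher and 5.6% lower). Of 27 tested mesenchymal effector genes (extracellular matrix and cytoskeleton), 4 were higher in MYC by edgeR and 0 lower, against 1.96% and 2.09% of all genes. All 4 were collagens: Col1a2, at 915 ± 419 against 3.71 ± 3.13 CPM (SD, n = 4 and 2; edgeR's adjusted p = 0.0157), Col1a1, Col5a2 and Col3a1. By unadjusted p under 0.05, 16 of the 27 were higher and 1 lower, and DESeq2 also called 16 higher and 1 lower. The groups did not overlap for 14 of them, against 34.4% of all genes. The median log2 fold change was 3.10 over these 27 genes and 4.51 over the 17 epithelial genes tested, so that the higher median was not that of the mesenchymal list. Only 1 of the 17 epithelial genes did not overlap between subgroups. Between the 2 sites within MYC 12 of 15 did not overlap, against 37.4% of all genes, and 0 passed edgeR's test. Epcam was at 425 and 501 CPM in the basal cerebral MYC replicates 1 and 5. It was at 38.3, 0 and 2.09 CPM in MYC replicates 2 to 4 and at 267 and 198 CPM in SHH. Of 17 dimer partners and co-repressors, 17 epithelial genes and 21 upstream signals tested, 0 passed edgeR's test, 3, 7 and 9 had an unadjusted p under 0.05 in either direction, and DESeq2 called 3, 3 and 6. The 3 partners and co-repressors lie below the share of all genes by the unadjusted p.

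Within animals more of these genes passed. Of 10 tested craniofacial and mesenchymal factors 6 were higher in low-immune cells and 1 was lower, where 14.1% of all 9955 genes were higher and 15% lower. Nr2f2, a nuclear receptor of mesenchyme and veins, was at 53.4 ± 40.2 against 9.80 ± 14.6 CPM (SD, n = 6; edgeR's adjusted p = 0.00620), and Foxc1, a forkhead factor of meninges and cranial mesenchyme, at 52.3 ± 31.6 against 7.61 ± 9.84 CPM (adjusted p = 0.00805). The 1 lower gene was Ets1, a factor of lymphocytes as well as of neural crest, at 10.0 ± 5.40 against 88.8 ± 71.2 CPM. Of 16 partners and co-repressors 5 were higher and 0 lower, led by the Hippo pathway genes Wwtr1, Yap1 and Tead1.

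Of 19 tested effector genes 10 were higher and 2 lower, and Tgfbi fell by 4.94 ± 0.77 on the log2 scale (SE). Of 15 upstream signals 7 were higher, among them Fgfr1, at 287 ± 114 against 52.2 ± 69.2 CPM, and 3 were lower, among them Tgfbr1, a receptor of TGF-beta, which was at 11.4 ± 6.91 against 130 ± 131 CPM and did not overlap between the classes. Of 5 epithelial genes 3 were higher and 0 lower (Klf5, Krt8 and Krt18). The median log2 fold change was 2.58 for the craniofacial factors, 2.32 for the epithelial genes, 2.06 for effectors, 1.48 for upstream signals, 0.53 for partners and co-repressors and 0.05 for all genes tested.

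The genes whose levels ran most like a member's across the 7 libraries were found among 8454 genes, as the smallest root mean square difference of centred log2(CPM + 1). For Prrx1 these were Myh9 (0.35), Tnfrsf1a (0.40) and Sntb2 (0.43), and Myh9 was at 25.1 to 107 CPM in the MYC libraries and 3.96 and 4.25 CPM in the SHH libraries. For Alx1 the nearest was Cyp26b1 (0.71), an enzyme that clears retinoic acid, at 60.1 CPM in MYC replicate 5 and at 14.7 CPM or less elsewhere. For Zeb2 it was Chl1 (0.47), a neural cell adhesion gene, and for Snai1 Angptl4 (0.40). With 7 libraries and 8454 genes, close matches are a description only.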

How the data were processed

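The deposited tables, 1 per library, give UMI counts as whole numbers that were not normalized; they were made with Cell Ranger 2.0.2 on mm10 per the submitters' processing notes. They hold 24433 barcodes; the study states 24199 cells. Barcodes with at least 500 UMIs, at least 200 genes and at most 20% mitochondrial UMIs were kept (23938), and the highest Scrublet scores (scanpy 1.11.5; 0.8% per 1000 cells, libraries of at least 200 cells) were removed as doublets (2039). A gene not listed in a table was set to 0.

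UMIs were summed per animal and cell class, with MYC replicates 2 and 3 summed as 1 animal, and tested with edgeR 4.0.16 (R 4.3.3; TMM, filterByExpr, quasi-likelihood F test, Benjamini-Hochberg over all genes tested, threshold 0.05). The standard error is the log2 fold change divided by the root of F. In the comparison within animals the animal was a block, because both classes come from 1 tumour; same-animal deviations correlated at 0.28 to 0.60 over 9955 genes. DESeq2 1.42.0 was an alternative. Simulated 4-fold and 16-fold changes were put into a small sample of genes with higher total counts. Between subgroups in low-immune cells 17.9% and 85.1% of the changed genes were recovered (fit of 11712 genes). Within animals 95.5% and 100% were recovered (fit of 9955), and between sites 6% and 62.7% (fit of 9593). These shares do not cover genes with few UMIs. Shares were also computed after thinning cells to 1500 UMIs.

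Members, lists and tests were chosen with earlier results of these data known. All 9 members are named in each comparison. From each other list up to 4 genes with the smallest p among those passing were eligible, and for each member with a mean of at least 10 CPM the 3 most similar genes.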

Additional observations from a re-analysis of the deposited data

Results flagged for a closer look

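Among the 4 MYC animals, 1 stood apart from the other 3 for 3 members, with a gap to the nearest animal that took up most of the range. Alx1 was at 109 CPM (TMM-normalised) in the low-immune cells of MYC replicate 5 and at 92.0 CPM over all its cells with Ptprc at 0. Snai1 was at 40.5 CPM in the low-immune cells of the animal of MYC replicates 2 and 3 and at 28.0 CPM over its cells with Ptprc at 0; its level lay mainly in the cerebellar tumour (56.8 CPM) rather than the trigeminal one (8.13 CPM). Twist2 was at 7.81 CPM and 4.75 CPM in the same animal and lay in the trigeminal tumour. In all, 23 sets of values were examined for such gaps and 6 were found. The limit used is passed by about 1 in 20 sets of normally distributed values. Levels in CPM that include 0 are not so distributed, so the 6 cannot be set against that rate. The 6 are 3 genes seen in 2 cell classes of the same animals, of which 1 class lies within the other, so the sets are not independent.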

How the results depend on the processing

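Between subgroups in cells with Ptprc at 0, 43 genes passed; 924 passed with DESeq2, 78 with 7 libraries as replicates, 2 with sequencing runs as a covariate, and 0 to 3 with an animal left out. In low-immune cells 474 passed; 1663 passed with DESeq2, 239 with the covariate, and 0 (without MYC replicate 5) to 339 (without MYC replicate 4) with an animal of 1 library left out, 709 without MYC replicates 2 and 3, 18 without SHH replicate 1 and 1 without SHH replicate 2. Between sites 0 passed, against 191 with DESeq2 and 737 without a filter on low counts. Within animals every count lay within 1.5 times the reported 2891, and the fit with no replicate block gave 2165. No paired analysis was possible between subgroups or sites because the groups hold different animals and their replicate numbers were given in accession order. Of 361 member fold changes under other settings, 331 kept direction and side of the threshold and 8 changed sign: with an animal left out, Zeb2 ran from -1.85 to 0.03 over Ptprc at 0 and -2 to 0.05 in low-immune cells (highest without SHH replicate 1), and Twist2 from -2.40 to 0.17 and -1.97 to 2.03 (highest without SHH replicate 2); between sites Osr1 was -0.32 over all cells with Ptprc at 0, and with a library left out Osr1 ran from -0.24 to 2.43, Prrx1 from -0.93 to 0.66 and Twist1 from -0.92 to 0.02; none of these passed, and the cause was not tested. Of 75 co-detection ratios 65 stayed within the counting interval, and of 189 shares 107 did.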
